A study of Mus musculus with 15 samples.

Results

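The interferon-stimulated genes are described here as a module of 39 genes listed by symbol, of which 37 were found in both deposited expression tables. The table of the deletion groups lists 21886 genes and that of the Ezh2 K735R groups 14301. Mx1 and Mx2 were not analysed here. The 37 genes comprise 4 transcription factors, 4 nucleic acid sensors and 29 effectors, and all 37 passed the filters on low values in both tables. They were above 0 in every library, with no fewer than 31 reads in any library of the deletion groups and no fewer than 24 counts in any library of the K735R groups.

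Interferons are secreted cytokines that bind receptors on the cell surface and activate Janus kinases. The kinases phosphorylate STAT proteins, among them STAT2, which join IRF9 and bind the interferon-stimulated response element in the promoters of responsive genes. Sensors of viral RNA and DNA start the production of interferon, IRF7 amplifies it, and effector proteins block steps of viral replication or tag, cut or sequester viral RNA and proteins. Many of these genes also have a basal level in epithelial cells that have met no virus.

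RNA was sequenced from prostate epithelial cells of C57BL/6 mice grown as organoids, 3-dimensional cultures, with 2 libraries in each of 6 groups. Of the groups from 3-month-old mice, the double null cells carried the alleles Setd2PC-/-;Ezh2PC-/-, the Ezh2 null cells Ezh2PC-/- and the Setd2 null cells Setd2PC-/-, and the control cells carried neither. Of the groups from 2-month-old mice, the Ezh2 K735R cells carried Ezh2K735R and the wild-type Ezh2 cells did not. SETD2 methylates lysine 36 of histone H3, and EZH2 is the catalytic subunit of Polycomb repressive complex 2, which methylates lysine 27. K735R is a substitution of arginine for lysine in EZH2. The promoter that drives the deletions is not given in the sources used here. Each library of the first 4 groups pooled RNA from 3 biological replicates in equal mass, so p-values measure the spread between pools. The pool size of the K735R groups is not stated.

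Promoter sequences are shown because the response element lies in the promoters of responsive genes. RefSeq promoter windows of 300 bases, 250 before and the rest after each annotated start on GRCm38.p6 (the assembly that mm10 names), were matched by symbol for 29 of the 39 listed genes. Windows were missing for Mx1, Mx2, Oas2, Usp18, Ifi27, Dhx58, Rtp4, Parp9, Parp14 and Zbp1. The core of the response element was searched as GAAANNGAAA on both strands, where the other strand reads TTTCNNTTTC and matches may overlap. A match was present in 14 of the 29 genes (48.3%), against 3.99% of all 27025 genes in the table and 3.44% of its 32851 windows. Those 14 genes were Ifih1, Ddx58, Stat2, Ifit1, Ifit3, Ifit3b, Oas1a, Oas3, Gbp2, Gbp3, Isg15, Ifitm3, Bst2 and Rsad2. The stretches below hold the matches, in capitals, of genes on which the results turn, each 5′ to 3′ on the strand of the gene. The last line gives the whole window of Ifitm1, whose transcript followed another course than the rest of the module. Ifitm1 is among the 15 genes with a window but no match, as are Ifi44, Oasl2 and Xaf1, which fell with the module. Its window lies inside the deposited gene span, which begins at 140967429, so bases before that start were not searched. A link between match and course was not tested.
Ifit1, chr19:34640773-34640825, plus strand: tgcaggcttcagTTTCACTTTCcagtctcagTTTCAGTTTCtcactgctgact
Ifit3, chr19:34583361-34583428, plus strand: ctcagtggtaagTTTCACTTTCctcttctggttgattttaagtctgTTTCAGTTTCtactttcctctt
Ifit3b, chr19:34607757-34607824, plus strand: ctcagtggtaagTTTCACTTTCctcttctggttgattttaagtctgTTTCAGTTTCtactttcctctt
Oas3, chr5:120777713-120777746, minus strand: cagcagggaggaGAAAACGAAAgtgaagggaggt
Isg15, chr4:156200863-156200908, minus strand: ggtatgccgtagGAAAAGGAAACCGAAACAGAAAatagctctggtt
Gbp3, chr3:142559987-142560026, plus strand: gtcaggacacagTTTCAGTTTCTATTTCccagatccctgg
Rsad2, chr12:26456551-26456584, minus strand: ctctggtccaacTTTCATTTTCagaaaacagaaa
Ifitm3, chr7:141010704-141010754, minus strand: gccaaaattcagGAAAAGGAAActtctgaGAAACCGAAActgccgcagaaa
Ifitm1, chr7:140967826-140968125, plus strand: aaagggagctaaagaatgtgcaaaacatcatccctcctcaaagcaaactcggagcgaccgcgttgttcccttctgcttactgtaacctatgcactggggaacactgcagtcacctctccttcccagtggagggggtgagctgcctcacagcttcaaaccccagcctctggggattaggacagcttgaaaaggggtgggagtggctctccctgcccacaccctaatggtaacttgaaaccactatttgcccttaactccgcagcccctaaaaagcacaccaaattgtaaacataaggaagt

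The first match of Ifit1 began 104 bases before the start, that of Oas3 75 bases before it and that of Rsad2 120 bases before it. Isg15 held 3 overlapping matches, the first beginning 78 bases before the start. The 2 matches of Ifitm3 lay after its annotated start. Ifit3 and Ifit3b, neighbours on chromosome 19, had the same letters in the stretch shown, and over the 260 bases on which their windows aligned 258 were identical (99.2%). Reads of such near-identical copies may be split between them by the counting, so Ifit3 and Ifit3b, Oas1a with the other Oas1 genes, Gbp2 and Gbp3 with the other guanylate-binding protein genes, and Ifitm1 and Ifitm3 with Ifitm2 are less certain than the other genes. Strandedness is not given in the sources used here, so reads of overlapping antisense genes cannot be told apart.

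The targeted transcripts were lower in the cells that lack each gene but were not absent. Setd2 was at 8.99 and 7.54 RPKM (reads scaled to transcript length and library depth) in double null cells, 8.75 and 10.3 in Setd2 null, against 17.0 and 16.1 in control. It was also below control in Ezh2 null cells, where Setd2 was not deleted, at 14.6 and 11.6 RPKM. Ezh2 was at 16.6 and 14.2 RPKM in double null cells, 13.8 and 11.6 in Ezh2 null cells, against 19.4 and 20.8 in control. Whether the remaining reads lie outside the deleted exons was not tested. Recovered reads on listed genes numbered between 47199458 and 54401094 per library in Ezh2 null and double null cells. In Setd2 null and control they numbered between 29771348 and 34923209. Depth therefore went with the loss of Ezh2, and its part in the results below was not tested. The count totals of the K735R groups were between 28831228 and 37482322. The 8 epithelial markers summed to between 3530 and 5190 RPKM in the libraries of the 4 deletion groups, with members moving in opposite directions. In Ezh2 null, Epcam was 3.51-fold lower than in control (limma adjusted p = 2.94e-06), Krt18 1.41-fold and Cdh1 1.42-fold lower, and the basal keratin gene Krt5 2.25-fold higher (limma adjusted p = 0.000299). In double null, Epcam was 3.19-fold lower than in control, and Krt5 was 3.56-fold and Krt14 2.39-fold higher. The sum of the 9 immune markers was between 13.8 and 15 RPKM in double null cells, 13.5 and 14.2 in Ezh2 null cells, 33.1 and 39.6 in Setd2 null and 21.9 and 24.6 in control. The lysosomal gene Cd68 led it in 3 of the groups and the lysozyme gene Lyz2 in Ezh2 null, at 7.69 and 8.2 RPKM there and 2.67 and 3.02 in double null, while Lyz2 was listed at 0 in all Setd2 null and control libraries. Adgre1, a macrophage marker, followed Lyz2 at lower levels. Cd68 was 5.36-fold lower in Ezh2 null than in control (limma adjusted p = 1.01e-06). Adgre1 was at 0.331 and 0.258 RPKM in double null cells, 0.921 and 1.15 in Ezh2 null cells and listed at 0 in Setd2 null and control. Itgam, Csf1r and the pan-leukocyte gene Ptprc were also higher in both Ezh2 null libraries than in both control libraries, none of them above 0.288 RPKM. Csf1r did not follow Lyz2 elsewhere, at 0.0413 and 0.0404 RPKM in double null, 0.0897 and 0.083 in Setd2 null and 0.0376 and 0.0374 in control. The 5 stroma markers, led by Dcn, summed to between 28.9 and 33.4 RPKM in double null cells, 32 and 33.6 in Ezh2 null cells, against 1.47 to 2.42 in Setd2 null and 2.07 to 2.14 in control. The part of these markers in the results below was not tested. In bulk samples fewer cells of a type and less RNA per cell cannot be told apart.

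In control cells the module was expressed at a median of 18.9 RPKM. Ifitm3, a membrane protein that keeps viruses from fusing in endosomes, was the most abundant transcript at 955 ± 22.2 RPKM (SD, n = 2), followed by Bst2, the tetherin that holds budding virions at the surface, at 110 ± 10.8 RPKM. In control, 27 of the 37 genes reached 10 RPKM and the lowest was Ifit2 at 3.35 RPKM. The median gene of the module stood at 8.53 RPKM in double null, 4.31 in Ezh2 null and 27.5 in Setd2 null. Ifitm3 and Bst2 remained the most abundant members in every one of these groups. Genes reaching 10 RPKM numbered 17 in double null, 11 in Ezh2 null and 30 in Setd2 null.

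**Figure D1:**
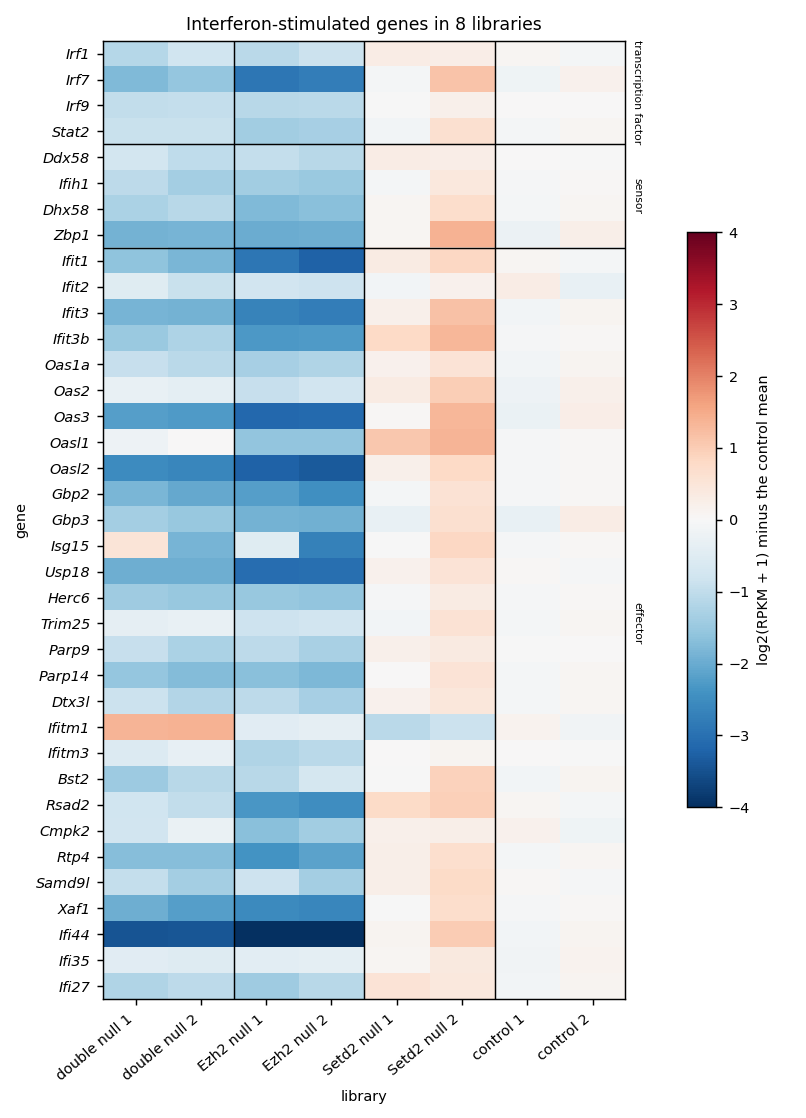
Level of each of the 37 genes (rows, by role) in the 8 libraries of the deletion groups (columns), as log2(RPKM + 1) minus the control mean of that gene. Both Ezh2 null libraries and both double null libraries are blue for nearly all genes, Ifitm1 is red in double null, and the second Setd2 null library is redder than the first. The colour scale ends at -4 and 4, which Ifi44 passes in Ezh2 null.

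In cells without Ezh2 nearly the whole module was lower. Against control, 36 of the 37 genes fell in Ezh2 null cells and none rose, where 20.5% of the 11338 genes tested were lower and 36.1% were higher (limma on log2(RPKM + 1), Benjamini-Hochberg adjustment over all genes tested, called at an adjusted p of 0.05, two-sided). All 37 genes were lower in both Ezh2 null libraries than in both control libraries, which held for 30.6% of all genes tested. The median log2 fold change of the module was -1.55, with a range of -4.09 to -0.40, against 0.18 over all genes tested. Quantile normalization and median-ratio scaling moved the median of all genes to 0.01, that of the module to -1.75 and -1.67, and the split of calls over all genes to 3172 higher and 3189 lower and to 3077 higher and 3103 lower, against 4096 higher and 2320 lower on the deposited scale. The module's 36 calls were the same in number under both scalings.

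All 4 transcription factors fell in Ezh2 null cells. Irf7, the factor that amplifies interferon production (chr7:141263183-141266499 on mm10), was at 6.61 and 7.24 RPKM in Ezh2 null, against 49.1 and 61.4 in control. These means differed 7.98-fold, the widest gap among the factors (log2 fold change -2.82 with SE 0.356, limma adjusted p = 0.000497). Stat2, a STAT subunit of the complex that binds the response element, was at 8.50 and 8.87 RPKM in Ezh2 null and at 22.1 and 25.3 in control, which is 2.73-fold lower (limma adjusted p = 0.000445). Irf9, the DNA-binding subunit of the STAT complex, was at 18 and 18.5 RPKM in Ezh2 null and at 40.2 in both control libraries, which is 2.21-fold lower (limma adjusted p = 5.24e-05). Irf1, a factor that also answers to interferon gamma, was at 11.9 and 14.1 RPKM in Ezh2 null and at 27.7 and 24.9 in control, which is 2.02-fold lower (limma adjusted p = 0.000412). For all 4 factors the groups were apart.

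All 4 sensors fell in Ezh2 null cells too. Ddx58, which encodes the RNA helicase RIG-I, was at 16.5 and 14.6 RPKM in Ezh2 null and at 33.2 and 32.7 in control (2.12-fold lower, limma adjusted p = 0.000129). Ifih1, encoding the long double-stranded RNA sensor MDA5, was at 4.41 and 4 RPKM in Ezh2 null and at 12.5 and 13.6 in control (3.11-fold lower, limma adjusted p = 0.000132). Dhx58, encoding their regulator LGP2, was at 2.21 and 2.45 RPKM in Ezh2 null and at 9.29 and 10.7 in control (4.27-fold lower, limma adjusted p = 5.38e-05). Zbp1, a sensor of left-handed nucleic acid that can trigger necroptosis, was the lowest gene of the module in Ezh2 null. It had 0.349 and 0.379 RPKM there, against 3.53 and 5.23 in control, 12-fold lower (limma adjusted p = 0.00498). The call of Zbp1 was lost without the second Ezh2 null library (adjusted p = 0.0543), and the groups were apart for all 4 sensors.

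**Figure D2:**
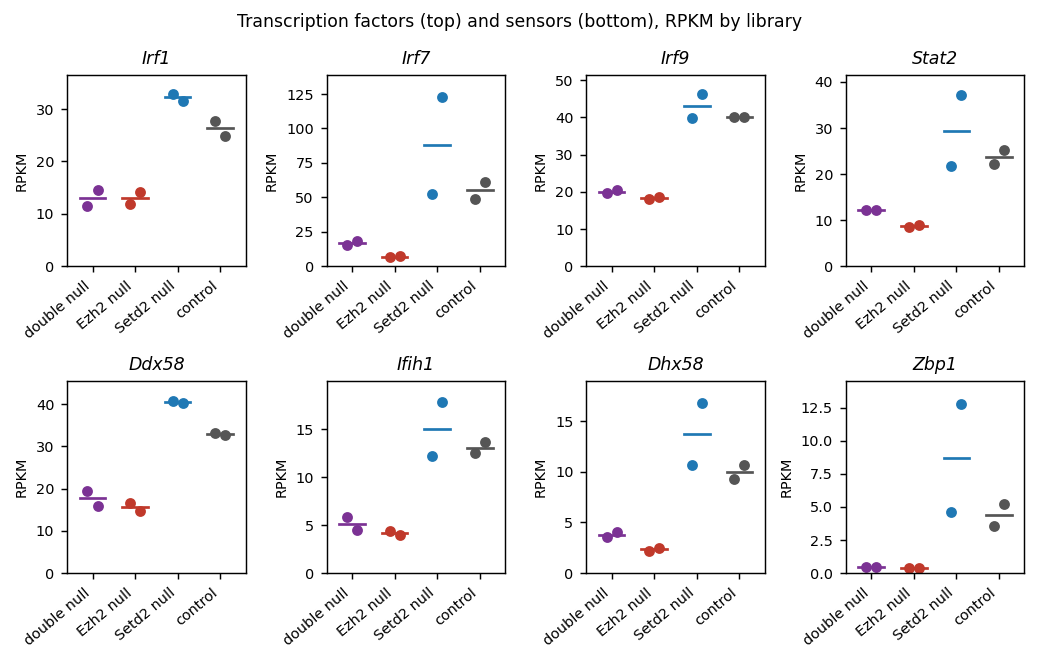
RPKM of the 4 transcription factors (top) and 4 sensors (bottom) in each library (points) with the group mean (line), from double null at the left to control at the right. Both libraries of Ezh2 null lie below both control libraries in every panel, and the Setd2 null libraries of Irf7, Stat2, Dhx58, Ifih1 and Zbp1 lie far apart.

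Among the effectors 28 of 29 fell in Ezh2 null cells. The deepest fall was that of Ifi44, an interferon-induced gene that restrains viral and cell growth, at 1.92 and 1.55 RPKM in Ezh2 null, against 42.4 and 48.7 in control. This is a 26.2-fold difference of means (log2 fold change -4.09 with SE 0.244, limma adjusted p = 9.54e-07). Ifi27, a small mitochondrial and nuclear envelope protein gene, was at 15.1 and 19 RPKM in Ezh2 null and at 39 and 46 in control, 2.49-fold lower. Other effectors in no family also fell, with Xaf1, a pro-apoptotic gene, 10.2-fold lower, the radical SAM enzyme viperin (Rsad2) 10.1-fold, Rtp4 5.65-fold, the nucleotide kinase gene Cmpk2 4.53-fold, Samd9l 2.19-fold and Ifi35 1.35-fold lower.

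All 4 genes of the IFIT family fell, in which IFIT1 binds viral RNA that lacks the host's cap methylation. Ifit1 was at 1.53 and 1.02 RPKM in Ezh2 null and at 18.8 and 16.9 in control, 14.0-fold lower (limma adjusted p = 1.1e-06). Ifit3 was at 0.898 and 0.797 RPKM in Ezh2 null and at 10.3 and 12.2 in control, 13.3-fold lower (limma adjusted p = 2.06e-05). Ifit3b was 13.1-fold lower, and Ifit2, in the same cluster, only 2.28-fold lower. The call of Ifit2 was lost without the first control library (adjusted p = 0.0958).

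All 5 genes of the OAS family fell, whose catalytically active members make the oligoadenylate that activates RNase L. Oasl2, an OAS-like gene, was at 6.00 and 5.51 RPKM in Ezh2 null and at 63.6 and 66.9 in control, 11.3-fold lower (limma adjusted p = 4.74e-07). Oas3 was at 1.23 and 1.27 RPKM in Ezh2 null and at 15.1 and 22.6 in control, 15.1-fold lower (limma adjusted p = 0.000811). Oas1a was at 6.53 and 7.21 RPKM in Ezh2 null and at 16.7 and 19.4 in control, 2.63-fold lower (limma adjusted p = 0.000101). Oasl1, which in mouse represses the translation of Irf7, was 3.61-fold lower. Oas2 was 2.32-fold lower and lost its call without the second control library (adjusted p = 0.0739). Neighbours within the OAS cluster on chromosome 5 differed in the depth of their fall, with Oas3 at a log2 fold change of -3.12 (SE 0.403) and Oas2 at -0.85 (SE 0.216).

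The guanylate-binding protein genes, GTPases that attack the compartments of intracellular pathogens, both fell. Gbp2 was at 2.23 and 1.67 RPKM in Ezh2 null and at 13.2 and 14.3 in control, 7.05-fold lower (limma adjusted p = 1.28e-05). Gbp3 was at 0.551 and 0.526 RPKM in Ezh2 null and at 3.70 and 6.05 in control, 9.06-fold lower (limma adjusted p = 0.000751). For both genes the libraries of the groups were far apart. In the ADP-ribosylation group, the genes of Parp9 and its partner, the ubiquitin ligase Dtx3l, overlap at their starts on chromosome 16, so some of their reads may be shared. Parp9 was at 14.6 and 12.1 RPKM in Ezh2 null and at 30.7 and 31.9 in control, 2.34-fold lower (limma adjusted p = 0.000147). Dtx3l was at 11.9 and 9.64 RPKM in Ezh2 null and at 23.9 and 27.3 in control, 2.38-fold lower (limma adjusted p = 0.000219). Their log2 fold changes were the same to 2 decimals, -1.18, and Parp14 had -1.74.

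Of the genes for ISG15, a ubiquitin-like protein, and for ubiquitin ligases and proteases, 3 of 4 fell. Usp18, the protease that removes ISG15 and damps receptor signalling, was at 5 and 5.13 RPKM in Ezh2 null and at 50.2 and 47.3 in control, 9.63-fold lower (limma adjusted p = 2.01e-07). Trim25, the ubiquitin ligase that acts on RIG-I, was at 21.7 and 22.8 RPKM in Ezh2 null and at 37.2 and 42.3 in control, 1.79-fold lower (limma adjusted p = 0.00669). Its call was lost without the second control library (adjusted p = 0.0543). Herc6, the main ISG15 ligase in mouse, was 4.77-fold lower.

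The membrane protein genes had the smallest median change among the effector families, -0.92, and IFIT genes the largest, -2.50. Ifitm3 was at 416 and 456 RPKM in Ezh2 null and at 970 and 939 in control, 2.19-fold lower (limma adjusted p = 0.000129). Bst2 was at 49.8 and 66.2 RPKM in Ezh2 null and at 102 and 117 in control, 1.89-fold lower (limma adjusted p = 0.0217). Ifitm1 was at 5.06 and 5.40 RPKM in Ezh2 null and at 8.06 and 6.46 in control, 1.39-fold lower (limma adjusted p = 0.0337). The calls of Bst2, Ifitm1 and Ifi35 depended on the libraries used, and those of Bst2 and Ifi35 were also lost without the filter on low values (adjusted p = 0.059 and 0.055). Bst2 was lost without the first Ezh2 null library (adjusted p = 0.131) and without the first or second control library (0.0565 and 0.108). Ifitm1 was lost without the first or second Ezh2 null library (0.123 and 0.0734) and without the first control library (0.253). Ifi35 was lost without the first or second Ezh2 null library (0.107 and 0.0869) and without the second control library (0.244). Apart from these and from Zbp1, Ifit2, Oas2 and Trim25, the other 29 calls held under every alternative that was run.

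**Figure D3:**
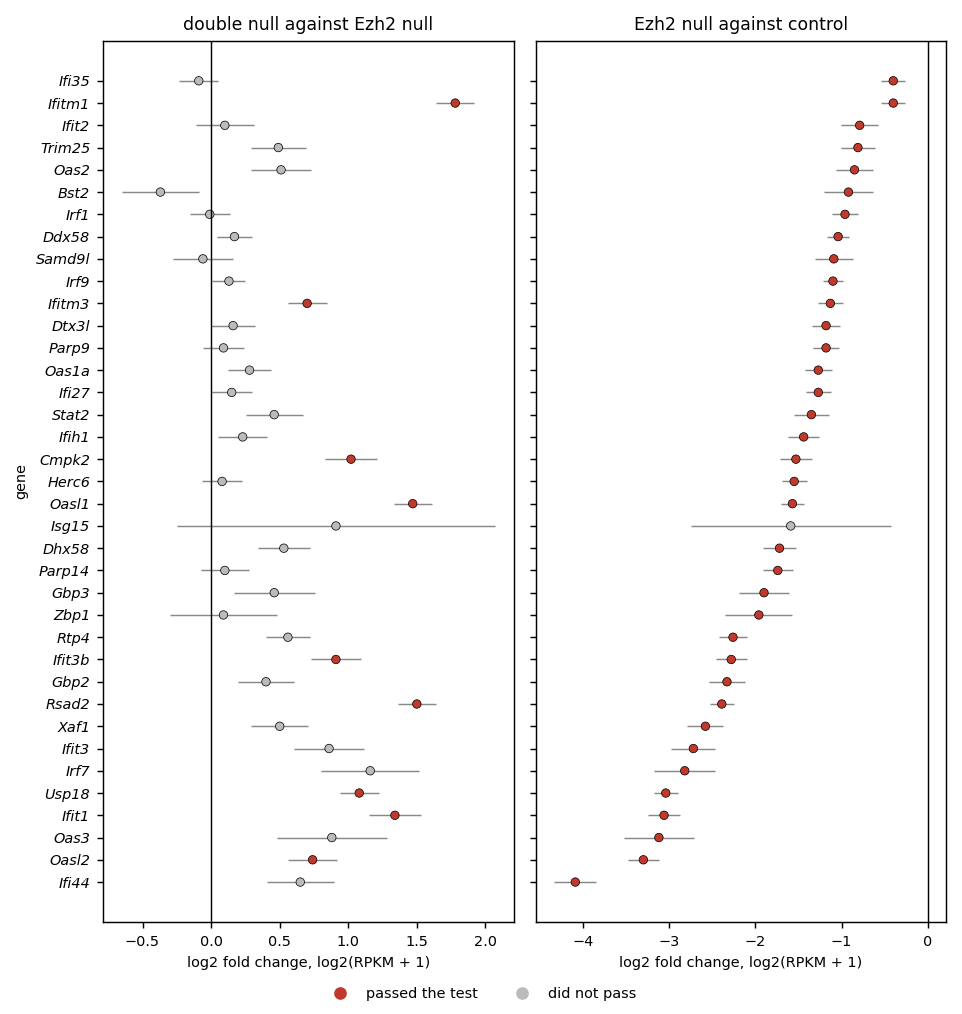
Log2 fold change on the log2(RPKM + 1) scale with its standard error for each gene, ordered by the change in Ezh2 null, for double null against Ezh2 null (left) and Ezh2 null against control (right); red points passed the test and grey ones did not. The right panel runs from -0.40 for Ifi35 and Ifitm1 to -4.09 for Ifi44, with Isg15 alone in grey and with the longest bar, and the left panel holds 9 red points, all above 0.

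Isg15 was the effector that did not pass the test in Ezh2 null cells, and it was singled out after its values were seen. Its libraries within a group were far apart, at 7.76 and 0.862 RPKM in Ezh2 null, against 10.8 and 11.5 in control (log2 fold change -1.59 with SE 1.16, limma adjusted p = 0.308). In double null it was at 16.4 and 2.32 RPKM, on both sides of control. The first library was the higher one in both groups without Ezh2. Over the whole module the 2 libraries of a group lacking Ezh2 differed little, with a median log2 difference of 0.02 in Ezh2 null and -0.06 in double null, second library minus first.

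The promoter match and the depth of the fall can be set side by side as a description. The 14 genes with a match had a median log2 fold change of -1.74 in Ezh2 null, between -3.12 and -0.92, and the 15 genes with a window but no match had -1.18, between -4.09 and -0.40. Both Ifi44 and Ifi35, the ends of the range, are among those without a match in the window.

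Genes of the pathway outside the module moved in both directions. Of 44 listed, 32 passed the filter. In Ezh2 null 5 of these rose and 10 fell, where 36.1% of all genes tested were higher and 20.5% lower. Their median log2 fold change was -0.09, against 0.18 over all genes tested. None of the 9 ligand genes passed the filter, and Ifna1, Ifna4 and Ifng were listed at 0 in all 8 libraries. Ifnb1 was listed at 0 in both double null and both Ezh2 null libraries, at 0.197 and 0 RPKM in Setd2 null and at 0 and 0.171 in control. Ifne, the epithelial interferon epsilon, had the highest mean of the ligands over the 8 libraries, though not in control, where Ifnk averaged 0.201 RPKM and Ifne 0.0743. It was at 1.36 and 0.890 RPKM in double null cells, 0.759 and 0.633 in Ezh2 null cells, against 0.228 and 0.675 in Setd2 null and 0.0497 and 0.0990 in control. Receptor genes fell in 3 of 6 cases, led by Ifngr1, a chain of the interferon gamma receptor, at 45.3 and 44.4 RPKM in Ezh2 null and 159 and 145 in control (log2 fold change -1.74, limma adjusted p = 2.6e-06). Ifnlr1, the receptor of interferon lambda, was at 6.29 and 6.97 RPKM in Ezh2 null and 14.1 and 16.8 in control (log2 fold change -1.10, limma adjusted p = 0.00058). Neither chain gene of the interferon alpha and beta receptor passed in this comparison. Ifnar1 had a log2 fold change of -0.24 (limma adjusted p = 0.0978) and passed under 4 alternatives, both scalings among them, and Ifnar2 had -0.05 (limma adjusted p = 0.751).

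Of the other pathway classes, 11 signalling genes upstream of interferon production were tested. In Ezh2 null 3 of them rose and 2 fell, where 36.1% of all genes tested were higher and 20.5% lower. The adaptor gene Myd88 was at 20.2 and 21.2 RPKM in Ezh2 null and 9.20 and 8.81 in control (log2 fold change 1.12, limma adjusted p = 3.71e-05). The kinase gene Ikbke was at 16.6 and 16.0 RPKM in Ezh2 null and 31.6 and 35.3 in control (log2 fold change -0.99, limma adjusted p = 9.82e-05). RNA-sensing effectors fell in 4 of 6 cases, with the nuclease gene Isg20 at 20 and 23.7 RPKM in Ezh2 null and 49.5 and 48 in control (log2 fold change -1.13, limma adjusted p = 6.92e-05). Samhd1, which depletes nucleotides, had a log2 fold change of -1.02 (limma adjusted p = 0.000319). Among kinases and STATs, Stat3 rose (0.41, limma adjusted p = 0.0323) and Jak2 fell (-0.38, limma adjusted p = 0.0489), but each call was lost in 7 of 16 alternatives. Stat3 was not called under either scaling, with edgeR on recovered reads or without any 1 of the Ezh2 null or control libraries. Jak2 was not called with a pseudocount of 0.1, without the filter or with some single libraries left out. Of the feedback genes Socs3 rose (0.81, limma adjusted p = 0.00315).

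In double null cells, which lack Setd2 as well, 32 of the 37 genes fell against control and 1 rose, where 20% of all genes tested were lower and 34.2% higher. Both double null libraries lay below both control libraries for 34 genes, which held for 31.3% of all genes. The median log2 fold change was -1.15, against 0.15 over all genes tested. This comparison uses the same control libraries as the last one, so the values are given side by side. All 4 transcription factors fell, with Irf7 at 15.3 and 18.3 RPKM in double null (3.29-fold lower than control, limma adjusted p = 0.00675), Stat2 at 12.2 and 12.3 (1.93-fold, 0.00524), Irf9 at 19.7 and 20.4 (2.00-fold, 0.000135) and Irf1 at 11.5 and 14.6 (2.02-fold, 0.000444). All 4 sensors fell, with Ddx58 at 19.4 and 15.9 RPKM, Ifih1 at 5.86 and 4.46, Dhx58 at 3.54 and 4.07 and Zbp1 at 0.438 and 0.465 in double null. Of the effectors 24 of 29 fell. Ifi44 again had the deepest fall, at 3.26 and 3.30 RPKM in double null, 13.9-fold lower than control (limma adjusted p = 3.45e-06). The genes that did not pass were Oas2 (log2 fold change -0.34), Trim25 (-0.32), Isg15 (-0.68) and Oasl1 (-0.10), all singled out after their values were seen. Oasl1 was at 9.54 and 11.2 RPKM in double null and at 10.8 and 11.6 in control, so that the groups overlapped (limma adjusted p = 0.552). The call of Irf7 was lost without the first double null library (adjusted p = 0.0575) and that of Oas3 without the second (0.0505). Zbp1, Ifit2, Ifitm3, Cmpk2 and Ifi35 also lost theirs without at least 1 library, at adjusted p of up to 0.062, 0.178, 0.193, 0.299 and 0.138.

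Against Setd2 null cells, the effect of losing Ezh2 where Setd2 was already missing, 35 of the 37 genes fell in double null and 1 rose, where 19.4% of all genes tested were lower and 35.6% higher. The median log2 fold change was -1.60, against 0.18 over all genes tested. Ifi44 was at 3.26 and 3.30 RPKM in double null and at 49.2 and 93.4 in Setd2 null, 21.7-fold lower (limma adjusted p = 1.2e-06). Zbp1 was at 0.438 and 0.465 RPKM in double null and at 4.62 and 12.8 in Setd2 null, 19.3-fold lower (limma adjusted p = 0.00147). Oas3 was at 3.26 and 3.01 RPKM in double null and at 19.0 and 47.8 in Setd2 null, 10.7-fold lower (limma adjusted p = 0.00115). For these 3 genes the groups were apart although the Setd2 null libraries differed widely. Isg15 was the gene that did not pass (log2 fold change -1.08 with SE 1.16, limma adjusted p = 0.478). With only the 2 groups compared in the fit, the calls of Irf7, Zbp1 and Oas3 were lost (adjusted p = 0.0598, 0.0675 and 0.052), as was that of Ifitm3 (0.0724). The call of Trim25 was lost without the filter on low values (limma adjusted p = 0.085). Those of Ifit2 and Cmpk2 did not hold with every library left out either. Of the 35 calls of lower genes, 28 held under every alternative.

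In cells without Ezh2, a part of the module was higher where Setd2 was missing too. Against Ezh2 null, 9 of the 37 genes were higher in double null and none was lower, where 3.79% of all genes tested were higher and 2.7% lower. All 9 were effectors. No transcription factor or sensor passed with all libraries in the fit, but the factors Irf7 and Stat2 and the sensor Dhx58 did under some alternatives, and a difference between the roles was not tested. Stat2 passed without the first or the second Setd2 null library (adjusted p = 0.0475 and 0.048), and Dhx58 without the first (0.0497). The median log2 fold change of the module was 0.49, against -0.02 over all genes tested, and 25 genes were higher in both double null libraries than in both Ezh2 null libraries, which held for 19.5% of all genes. A log2 fold change above 0 was found for 33 of the 37, against 45.9% of all genes. Rsad2 was at 4.70 and 3.96 RPKM in double null and at 0.989 and 0.789 in Ezh2 null, 4.88-fold higher (log2 fold change 1.5 with SE 0.139, limma adjusted p = 0.000236). Oasl1 was at 9.54 and 11.2 RPKM in double null and at 3.07 and 3.12 in Ezh2 null, 3.35-fold higher (log2 fold change 1.47 with SE 0.137, limma adjusted p = 0.000239). Ifit1 was at 5.20 and 4.29 RPKM in double null and at 1.53 and 1.02 in Ezh2 null, 3.71-fold higher (limma adjusted p = 0.00242). In these 3 genes the double null level was between that of Ezh2 null and that of control, or overlapped control in the case of Oasl1.

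Usp18 was at 11.9 and 11.8 RPKM in double null and at 5 and 5.13 in Ezh2 null, 2.34-fold higher (limma adjusted p = 0.00152). The calls of Rsad2, Oasl1, Ifit1, Usp18 and Ifitm1 held under every alternative run, and those of the other 4 did not. Ifit3b (3.78-fold, limma adjusted p = 0.0158) reached an adjusted p of up to 0.105, Cmpk2 (2.94-fold, 0.0119) up to 0.0896, Oasl2 (1.78-fold, 0.0377) up to 0.145 and Ifitm3 (1.62-fold, 0.0182) up to 0.186. The number of genes called was 17 without the first Setd2 null library and 16 without the second, and 5 without the first Ezh2 null library or the second double null library, and 6 without the second Ezh2 null library. Irf7 was at 15.3 and 18.3 RPKM in double null and at 6.61 and 7.24 in Ezh2 null, 2.43-fold higher, and did not pass (log2 fold change 1.16 with SE 0.356, limma adjusted p = 0.141). It passed with only the 2 groups compared (0.0214), with the replicate number as a block (0.0431) and without the first or the second Setd2 null library (0.00489 and 0.00488). Differences between same-numbered libraries correlated at 0.933 between these groups, though the labels tie the numbers to no batch. The ADP-ribosylation genes were close to each other in both groups, with log2 fold changes of 0.09 for Parp9, 0.10 for Parp14 and 0.16 for Dtx3l.

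Ifitm1 was the gene that went against the rest of the module. It was at 20.1 and 20.6 RPKM in double null cells, 5.06 and 5.40 in Ezh2 null cells, 2.89 and 3.55 in Setd2 null and 8.06 and 6.46 in control. No 2 of these 4 groups overlapped. It was 2.81-fold higher in double null than in control (log2 fold change 1.38 with SE 0.140, limma adjusted p = 3.68e-05), 6.33-fold higher than in Setd2 null (2.34, 1.04e-06) and 3.89-fold higher than in Ezh2 null (1.78, 8.02e-05). In Setd2 null against control it was 2.25-fold lower (log2 fold change -0.97 with SE 0.140, limma adjusted p = 0.0148), a call that did not hold under every alternative. The effect of Setd2 deletion in cells without Ezh2 minus that in cells with Ezh2 was 2.74 on the log2 scale (SE 0.197, limma adjusted p = 0.000184), and this call held under every alternative. It was the only member of the module called in this test of the interaction, where 2.59% of all genes tested were called, and the other 36 genes had values between -0.80 and 0.81. The median interaction of the module was 0.10, against -0.01 over all genes tested, with 23 genes above 0 and 14 below. Ifitm3, on the same chromosome, was at 657 and 760 RPKM in double null, 416 and 456 in Ezh2 null, 965 and 1030 in Setd2 null and 970 and 939 in control, and its interaction did not pass (0.63, SE 0.201, limma adjusted p = 0.195).

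**Figure D4:**
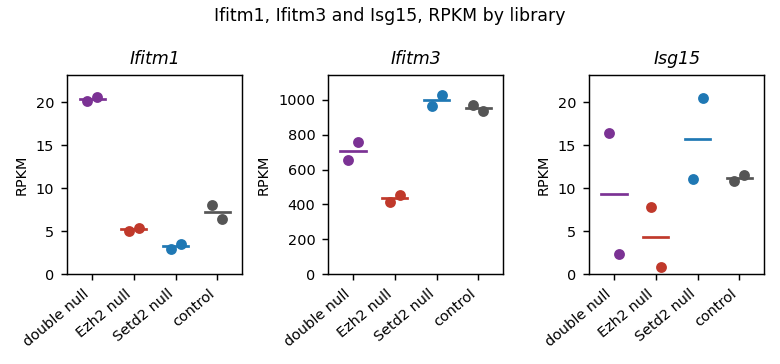
RPKM of Ifitm1, Ifitm3 and Isg15 in each library (points) with the group mean (line), from double null at the left to control at the right. Ifitm1 is highest in double null at 20.1 and 20.6 RPKM, Ifitm3 is lowest in Ezh2 null, and Isg15 differs widely between the 2 libraries of double null and of Ezh2 null.

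With Ezh2 intact, few genes of the module passed the test on deletion of Setd2. Against control, 3 of the 37 genes rose in Setd2 null cells and 1 fell, where 0.379% of all genes tested were higher and 0.688% lower. The 3 that rose were effectors. Oasl1 was at 24.7 and 30.3 RPKM in Setd2 null and at 10.8 and 11.6 in control, 2.46-fold higher (log2 fold change 1.22 with SE 0.137, limma adjusted p = 0.00424). Rsad2 was at 16.0 and 18.2 RPKM in Setd2 null and at 9.55 and 8.32 in control, 1.91-fold higher (log2 fold change 0.86 with SE 0.139, limma adjusted p = 0.0248). Ifit3b was at 11.4 and 17.0 RPKM in Setd2 null and at 5.82 and 6.41 in control, 2.32-fold higher (log2 fold change 1.07 with SE 0.180, limma adjusted p = 0.0302). The groups were apart for each of them. None of the 4 calls held under every alternative. Without the first control library none remained (adjusted p = 0.0688 for Oasl1, 0.135 for Rsad2, 0.237 for Ifit3b and 0.177 for Ifitm1), without the second control library 1 remained, and without the second Setd2 null library 2 remained.

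No transcription factor and no sensor passed in Setd2 null cells. Irf7 was at 52.4 and 123 RPKM in Setd2 null and at 49.1 and 61.4 in control, with overlapping groups (log2 fold change 0.54 with SE 0.356, limma adjusted p = 0.653). Stat2 was at 21.8 and 37.1 RPKM in Setd2 null and at 22.1 and 25.3 in control, Irf9 at 39.9 and 46.3 in Setd2 null and 40.2 in both control libraries, and both overlapped. Irf1 was at 32.8 and 31.6 RPKM in Setd2 null and at 27.7 and 24.9 in control, apart but not past the test (limma adjusted p = 0.504). Among the sensors, Ddx58 was at 40.7 and 40.2 RPKM in Setd2 null and 33.2 and 32.7 in control, and Dhx58 at 10.7 and 16.8 in Setd2 null and 9.29 and 10.7 in control, both above control in both libraries. Ifih1, at 12.2 and 17.8 RPKM in Setd2 null and 12.5 and 13.6 in control, and Zbp1, at 4.62 and 12.8 in Setd2 null and 3.53 and 5.23 in control, overlapped. Oas3 (19.0 and 47.8 RPKM in Setd2 null, 15.1 and 22.6 in control) and Ifi44 (49.2 and 93.4 in Setd2 null, 42.4 and 48.7 in control) showed the same spread between their Setd2 null libraries.

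The second Setd2 null library lay further above control than the first over the module. It was higher than the first for 34 of the 37 genes, with a median log2 difference of 0.51, while 47.0% of all genes tested were higher in the second. Set against the control mean, the median of the module was 0.09 in the first library and 0.63 in the second. Between the control libraries 26 genes were higher in the second, with a median difference of 0.11. Without an adjustment for many tests, 12 genes had a limma p under 0.05 and were higher and 1 was lower. The share of all genes at this unadjusted threshold was not counted, so these numbers have no background to be read against. Of the 37 genes 36 had a log2 fold change above 0 (35 with quantile normalization), against 46.2% of all genes tested, with a median of 0.35 against -0.02. Both Setd2 null libraries were above both control libraries for 19 genes, against 18.5% of all genes. The 32 other pathway genes tested had none that passed in either direction and a median of 0.04.

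**Figure D5:**
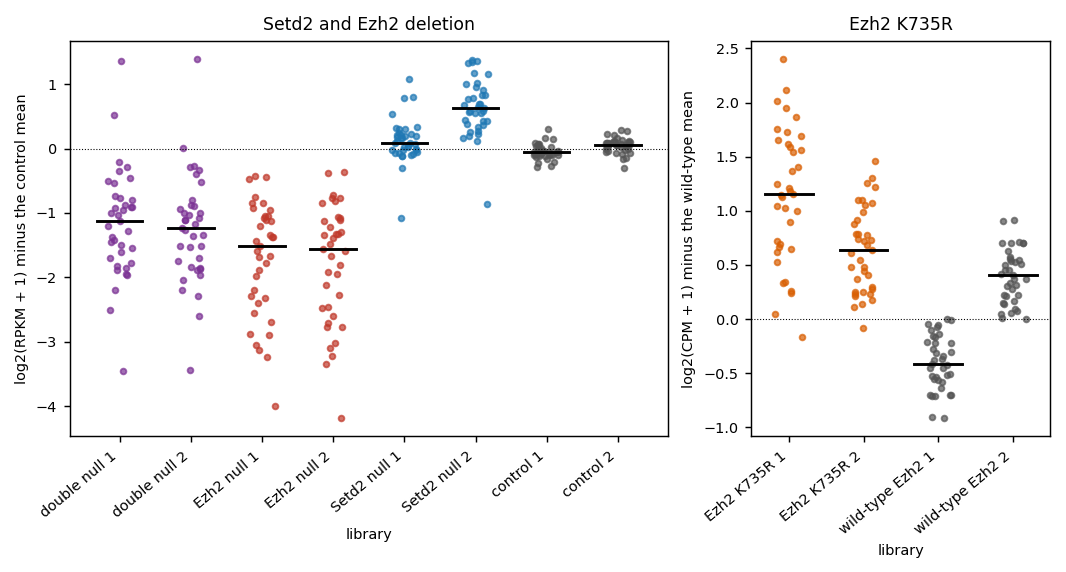
Each point is 1 of the 37 genes in 1 library, as log2(RPKM + 1) minus the control mean (left, deletion groups) or log2(CPM + 1) minus the wild-type mean (right, K735R groups), with a black line at the median over genes. Medians are -1.13 and -1.24 for double null, -1.51 and -1.56 for Ezh2 null, 0.09 and 0.63 for Setd2 null, and 1.15 and 0.64 in Ezh2 K735R, against -0.41 and 0.41 in wild-type Ezh2.

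In the cells of 2-month-old mice, the K735R form of Ezh2 was compared with wild-type Ezh2 in CPM (counts scaled to library depth). No gene of the module passed edgeR's quasi-likelihood test, and 1 of 13203 genes tested did (0.00757%). At an unadjusted p under 0.05, 10 of the 37 were higher in Ezh2 K735R and none was lower, where 4.59% of all genes were higher and 4.65% lower. DESeq2 called 5 of the 37 higher and none lower, Irf7, Ifit1, Oasl1, Gbp3 and Ifi27, where it called 1.34% of all genes higher and 0.82% lower. All 37 genes had a log2 fold change above 0, as had 48.0% of all genes, with a median of 0.88 against -0.01. Both Ezh2 K735R libraries were above both wild-type libraries for 27 genes, against 20.3% of all genes.

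Irf7 was at 50.1 and 29.0 CPM in Ezh2 K735R and at 10.1 and 16.7 in wild-type Ezh2 (log2 fold change 1.56, SE 0.376, edgeR adjusted p = 0.402, DESeq2 adjusted p = 0.00193). Irf1 was at 54.3 and 55.4 CPM in Ezh2 K735R and at 37.9 and 47.9 in wild-type Ezh2, apart as Irf7 was. Stat2, at 56.6 and 40.8 CPM in Ezh2 K735R and 26.5 and 45.2 in wild-type Ezh2, and Irf9, at 60.2 and 47.2 in Ezh2 K735R and 30.1 and 57.2 in wild-type Ezh2, overlapped. Among the sensors, Dhx58 was at 10.5 and 4.95 CPM in Ezh2 K735R and at 2.70 and 2.94 in wild-type Ezh2 (log2 fold change 1.45, SE 0.428, edgeR adjusted p = 0.446). Zbp1 was at 3.58 and 1.35 CPM in Ezh2 K735R and at 0.967 and 0.996 in wild-type Ezh2, also apart. Ddx58, at 146 and 125 CPM in Ezh2 K735R and 105 and 127 in wild-type Ezh2, and Ifih1, at 52.2 and 34.0 in Ezh2 K735R and 22 and 34.4 in wild-type Ezh2, overlapped.

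Of the effectors, Gbp3 had the highest log2 fold change, at 12 and 6.82 CPM in Ezh2 K735R and 1.53 and 3.47 in wild-type Ezh2 (1.90, SE 0.515, edgeR adjusted p = 0.423, DESeq2 adjusted p = 0.0184). Ifit1 was at 27 and 19.2 CPM in Ezh2 K735R and at 5.17 and 10.6 in wild-type Ezh2 (1.55, SE 0.399, edgeR adjusted p = 0.421, DESeq2 adjusted p = 0.00797). Ifi27 was at 33.2 and 28.3 CPM in Ezh2 K735R and at 14.4 and 18 in wild-type Ezh2 (0.92, SE 0.173, edgeR adjusted p = 0.285, DESeq2 adjusted p = 0.00456). Oasl1 was at 13.6 and 10.1 CPM in Ezh2 K735R and at 5.17 and 5.68 in wild-type Ezh2 (1.13, SE 0.238, edgeR adjusted p = 0.34, DESeq2 adjusted p = 0.0135). In all 4 genes the groups were apart. The values depended on the libraries. Wild-type Ezh2 library 1 was lower than library 2 for 36 of the 37 genes, with a median log2 difference of 0.82, and Ezh2 K735R library 1 was higher than library 2 for 34 genes. The wild-type libraries also differed from each other in lineage markers. Epcam was at 903 and 949 CPM in Ezh2 K735R and at 515 and 955 in wild-type Ezh2, and Krt5 at 3180 and 2560 in Ezh2 K735R and at 3990 and 1660 in wild-type Ezh2. The stroma markers summed to between 4.52 and 8.14 CPM in Ezh2 K735R and between 10.6 and 17.8 in wild-type Ezh2, without overlap, and the part of these markers in the values was not tested. Without wild-type library 2, the edgeR log2 fold change was 2.17 for Ifit1 and 1.1 for Ifi27. Without wild-type library 1, it was 1.13 for Ifit1 and 0.77 for Ifi27. Ifitm1 (2.18 and 3.98 CPM in Ezh2 K735R, 1.5 and 4.09 in wild-type Ezh2) and Ifitm3 (503 and 593 in Ezh2 K735R, 464 and 512 in wild-type Ezh2) had the lowest log2 fold changes, 0.13 and 0.17, and overlapped. None of the 32 pathway genes tested passed edgeR's test.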

How the data were processed

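The RPKM values of 8 libraries were deposited by the authors, as was a table of counts for the other 4. Per the submitters' processing notes, the genome was mm10, and Bowtie, RSEM, BWA and SICER are named for the series, and of these Bowtie and RSEM for K735R. For versions, annotation and reads shared between genes the sources used here give nothing. Deposited RPKM values are whole multiples of 1 read (99.99% of 13748 genes above 0 in all libraries, within 0.01 reads), which gave reads per gene and depth. The 3 chromatin and input samples were not analysed here.

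The 11338 genes averaging 1 RPKM or more entered limma 3.58.1 on log2(RPKM + 1), trend and robust, with all 4 groups in 1 model. A fold change on this scale understates that of genes at low level, so ratios of mean RPKM are given too. The counts entered edgeR 4.0.16 (TMM, its filter on low counts, robust quasi-likelihood test, 13203 genes), with DESeq2 1.42.0 as an alternative. P-values were adjusted by Benjamini-Hochberg over all genes tested and called at 0.05, two-sided. The scripts were tested on simulated data. All 39 listed genes are named or counted by role. Values per library are given for factors, sensors, the 2 effectors of each family with the highest mean RPKM, genes called in Setd2 null or K735R, and genes named after their values were seen. The module and the lists were chosen with earlier results of these data known. Labels do not say that libraries of the K735R groups came from separate animals. Alternatives were a pseudocount of 0.1, no filter or a mean of at least 5 RPKM, quantile normalization, median-ratio scaling, a block on the replicate number, a fit restricted to the groups compared, each library left out, and edgeR on the recovered reads. For the counts they were DESeq2, limma on log2 CPM, no TMM factors, median-ratio size factors, no filter or a mean of at least 10 counts, the block and each library left out. A further allele that all groups carry, controls included, and some genes are not reported here.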

Additional observations from a re-analysis of the deposited data

Results flagged for a closer look

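One gene of the module, Ifitm1, had changes on Setd2 deletion of opposite sign in cells with and without Ezh2. Its change on Setd2 deletion was 1.78 on the log2 scale in cells without Ezh2 and -0.97 in cells with Ezh2, and the difference, 2.74, passed the limma test of the interaction (adjusted p = 0.000184). Both double null libraries were above both Ezh2 null libraries, and both Setd2 null libraries were below both control libraries. The fall in Setd2 null against control did not hold under every alternative. It was not called without a filter or with only the groups compared (limma adjusted p = 0.0541 and 0.0649). With edgeR on recovered reads it was not called either (edgeR adjusted p = 0.0577). Its call was also lost without the first Setd2 null library, the first control library or the second control library. The log2 fold changes in these fits were -0.85, -0.83 and -1.11. The cause was not tested.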

How the results depend on the processing

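No call of the module changed direction under any alternative. The counts for Ezh2 null and for double null against control or Setd2 null, 36, 33 and 36, were between 28 and 36 under all alternatives (30 to 36, 28 to 34 and 30 to 36, and 32 to 36, 29 to 33 and 33 to 36 with 1 library left out); with a mean of at least 5 RPKM only 31 members were tested. For Setd2 null against control the 4 calls became 1 without a filter or with only the groups compared, and 0 to 4 with 1 library left out. The 9 calls of double null against Ezh2 null were 8 to 11, and 5 to 17 with 1 library left out. The interaction had 2 calls with a pseudocount of 0.1 or with edgeR on recovered reads, and 1 to 3 with 1 library left out. For K735R the calls were 5 with DESeq2 and 0 to 19 with 1 library left out. A lone library is assumed to vary like the other groups.

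Over all genes, the 121 calls of Setd2 null against control were 67 without a filter or with quantile normalization, 62 at 5 RPKM, 42 with only the groups compared and 24 to 128 with 1 library left out. Those of double null against Ezh2 null, 736, were 465 at 5 RPKM, 421 with only the groups compared and 342 to 810 with 1 library left out. The interaction had 294 calls, 146 at 5 RPKM and 143 to 276 with 1 library left out. K735R had 1, 285 with DESeq2, 2 with limma on log2 CPM and 0 to 1595 with 1 library left out. For double null, the all-gene split was 3874 higher and 2273 lower against control, 2928 and 3174 with quantile normalization, and 4036 and 2205 against Setd2 null, 2913 and 3128 with quantile normalization. EdgeR on the reads recovered from RPKM called 124 genes for Setd2 null against control, 7496 (3978 higher, 3518 lower) for Ezh2 null, 7152 (3765 higher, 3387 lower) for double null, 7235 (3799 higher, 3436 lower) for double null against Setd2 null, 742 for double null against Ezh2 null and 213 for the interaction.

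Replicate numbers are shared by the groups, but the labels tie them to no batch. With the replicate number as a block, members called were 4 for Setd2 null against control, 36 for Ezh2 null, 33 for double null, 36 for double null against Setd2 null, 11 for double null against Ezh2 null (Irf7 and Rtp4 added, adjusted p = 0.0431 and 0.0253), 1 for the interaction and 0 for K735R. Over all genes the block gave 231 calls for Setd2 null against control, 1078 for double null against Ezh2 null, 469 for the interaction and 4 for K735R. Differences between same-numbered libraries correlated at 0.933 between Ezh2 null and double null and at 0.101 to 0.358 between the other groups. In the deletion groups the block was 1 effect common to all 4 groups. It therefore does not take up a difference shared by Ezh2 null and double null alone, and a paired test of these groups was not run.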
